A study of Mus musculus with 7 samples.

Results

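The 10 genes described here are the 5 subunits of the transcription factor NF-kB (Nfkb1, Nfkb2, Rel, Rela and Relb) and 5 of its inhibitors (Nfkbia, Nfkbib, Nfkbie, Nfkbiz and Tnfaip3). They were chosen by function and symbol from 48795 genes measured by bulk RNAseq in 7 libraries. All libraries came from the spleens of wild type female C57BL/6 mice aged 8 to 12 weeks and were taken 10 days after the mice had received SRBCs (sheep red blood cells, a T cell-dependent antigen) by vein. There were 3 libraries of memory B cells (MBCs), sorted as B220+ cells that lacked CD138 and IgD and carried both CD38 and CD273, and 4 libraries of plasma cells (PCs), sorted as B220lo CD138+ IgD- cells. The labels name no transgene or deletion in either group, and CD43 MicroBeads had been used before the sort in both. Whether a library held 1 mouse or pooled mice is not given in the labels, so the tests measure the spread between these libraries only. The comparison asks how the transcripts of this signaling module differ between 2 cell types into which germinal center (GC) B cells differentiate.

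NF-kB works as a dimer of its subunits. Rela, Rel and Relb carry the domain that activates transcription, whereas Nfkb1 and Nfkb2 encode the precursors p105 and p100, which are processed to the DNA-binding partners p50 and p52. In resting cells the IkB proteins hold the dimers in the cytoplasm. The IkB kinase (IKK) marks these inhibitors for destruction downstream of the B cell receptor (BCR), CD40 and Toll-like receptors, and several of the inhibitor genes are themselves switched on by NF-kB, which closes a feedback loop. In B cells, c-Rel and RelA dimers are best known for activation, survival and the GC response, and the alternative pathway of p100 and RelB for survival signals from BAFF.

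Values are scaled TPM (transcript abundance per library total, already divided by gene length), corrected for the large share of immunoglobulin transcripts in PCs. Fold changes are PC minus MBC on log2(scaled TPM + 1), a scale that shrinks the change of genes at low levels. A gene was called when its limma p-value, adjusted by Benjamini-Hochberg over 11573 tested genes, was under 0.05 and its log2 fold change was at least 1 in size. TPM keeps no read totals, so the depth behind a value is unknown here. The number of genes listed above 0 was 11527 to 18061 in the MBC libraries and 14463 to 16768 in the PC libraries.

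The MBC libraries were less alike than the PC libraries. Pearson's r of log2(scaled TPM + 1) across genes, which are not independent replicates, was 0.675 to 0.687 between MBC libraries and 0.85 to 0.957 between PC libraries. MBC replicate 3 stood apart, with r of 0.70 to 0.777 to the PC libraries against 0.537 to 0.564 for the other MBC libraries. This library had 18061 genes above 0, against 12983 and 11527 in MBC replicates 1 and 2. Its mitochondrial share was 19.7%, against 33.2% and 33.5%. The part of these differences in its r was not tested. MBC replicate 3 went against its sort label at the transcript level: Cd38 was at 6.77 scaled TPM, against 130 and 186 in MBC replicates 1 and 2. Pdcd1lg2, which encodes CD273, was at 2.59 against 43.3 and 24.4. The GC gene Bcl6 was at 105 in that library, against 26.7 and 15.6 in the other MBC libraries. MBC replicate 2 had the fewest genes above 0 and held 2896.8 scaled TPM of erythroid and platelet genes, where each of the other libraries held at most 72.7. Ighd, which encodes IgD and against which both groups were sorted, was at 85.8 and 39.9 in MBC replicates 1 and 2, 9.55 in MBC replicate 3 and 14.2 to 38.8 in PCs. The 6 B cell identity genes were all called lower and the 5 PC identity genes all called higher in PCs, and Sdc1, which encodes CD138, was at most 0.0585 in MBCs and at least 49.6 in PCs. Immunoglobulin genes held 1.65% to 3.16% of TPM in MBCs and 49.4% to 55.9% in PCs, and mitochondrial genes 19.7% to 33.5% and 8.10% to 9.80%. The part of the mitochondrial share, a sign of RNA quality, in the results was not tested. Fold changes of the members are given with and without MBC replicate 3.

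Promoter windows of the module are shown first, because several of its genes are textbook targets of NF-kB itself. The windows cover 250 bases before a transcription start, on the strand of the gene, from RefSeq on GRCm38.p6, the build of the deposited data. Of the 10 members 7 had at least 1 window, and Nfkb1, Relb and Nfkbiz had none. The letters GGNNTTTCC, a short form of the sites that NF-kB dimers bind, were searched on both strands. Capitals mark every match, and a match on the other strand reads as the reverse complement. The windows of Rel and of the feedback inhibitor Nfkbia are printed, with the window of the feedback inhibitor Tnfaip3 that held matches. Another Tnfaip3 window, chr10:19011964-19012213, held no match and is not printed.
Rel, chr11:23770970-23771219, minus strand: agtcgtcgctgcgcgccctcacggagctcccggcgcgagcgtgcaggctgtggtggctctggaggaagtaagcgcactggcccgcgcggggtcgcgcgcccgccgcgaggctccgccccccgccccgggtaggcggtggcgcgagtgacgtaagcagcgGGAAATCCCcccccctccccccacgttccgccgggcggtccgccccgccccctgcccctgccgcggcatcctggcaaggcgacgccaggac
Nfkbia, chr12:55492648-55492897, minus strand: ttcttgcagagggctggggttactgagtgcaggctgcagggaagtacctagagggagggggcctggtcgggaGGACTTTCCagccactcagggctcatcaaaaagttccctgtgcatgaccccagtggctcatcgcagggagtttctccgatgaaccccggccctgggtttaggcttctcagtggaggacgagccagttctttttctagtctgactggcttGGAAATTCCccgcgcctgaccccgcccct
Tnfaip3, chr10:19015411-19015660, minus strand: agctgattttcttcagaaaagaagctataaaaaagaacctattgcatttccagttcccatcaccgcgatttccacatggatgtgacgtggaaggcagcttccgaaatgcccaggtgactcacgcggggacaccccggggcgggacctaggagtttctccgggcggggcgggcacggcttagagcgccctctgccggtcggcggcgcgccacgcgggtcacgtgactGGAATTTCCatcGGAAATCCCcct

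The Rel window held 1 match, which began 91 bases before the start, on the other strand. The Nfkbia window held matches at 178 and 29 bases, and the printed Tnfaip3 window at 24 and 12 bases. Of the 10 windows of members, 5 held a match, from 4 genes (Nfkb2 was the other), where 1619 of all 32851 windows did (4.93%). The windows of Rela, Nfkbib and Nfkbie, and another window each of Nfkb2 and Tnfaip3, held no match to these letters. Other forms of NF-kB sites were not searched, so a window without a match may still hold one. The counts and the matches describe these letters only, and no binding was measured.

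Rel was the single member of the module whose transcripts were called between the groups, and it was lower in PCs. Rel, on chromosome 11 (23736847 to 23770970, minus strand), encodes c-Rel, the subunit most closely tied to lymphocyte activation. In the order of replicates, its scaled TPM was 85.1, 72.3 and 49.5 for MBCs and 11.3, 7.98, 10.4 and 8.74 for PCs. Every MBC library lay above every PC library, including MBC replicate 3, which was the lowest MBC library. The mean level was 7.17-fold higher in MBCs, at 69.0 ± 18.1 (SD, n = 3) against 9.61 ± 1.51 (SD, n = 4). The fitted log2 fold change was -2.70 (SE 0.37, 95% interval -3.52 to -1.87, adjusted p = 0.0017 by limma). Without MBC replicate 3 it was -2.92 (adjusted p = 0.0014), and among libraries with the more frequent title prefix, a code the labels do not explain, it was -2.88 (adjusted p = 0.009). The latter fit also lacks MBC replicate 3, because that library and PC replicate 4 carry the other prefix. Among MBCs, the prefix and that library thus cannot be told apart. Rel was called in the reported fit and in all 15 alternatives to it (16 settings), with values of -2.92 to -2.53 when each library was left out in turn. In bulk samples, fewer cells that express a gene and less RNA per cell cannot be told apart.

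Among the 10 members, all of them listed above 0 in every library and tested, 1 was called lower and 0 higher. Over all 11573 genes, 248 were called lower (2.14%) and 742 higher (6.41%). With TPM as deposited, 3018 genes were called lower and 472 higher, with immunoglobulin genes removed 431 and 393, and with quantile normalization 490 and 629. Over all genes the median change was 0.14 on the log2 scale, and -0.91, -0.11 and -0.15 under these scalings. Without MBC replicate 3 the members' counts were again 1 lower and 0 higher, against 7.94% and 13.8% of all genes. The groups did not overlap for 1 member, Rel, against 21.7% of all genes tested. The median over the members was -0.04 on the log2 scale, and 0.06 without MBC replicate 3 where that of all genes was 0.19. With all libraries, Rel was also the single member at an unadjusted p under 0.05.

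**Figure D1:**
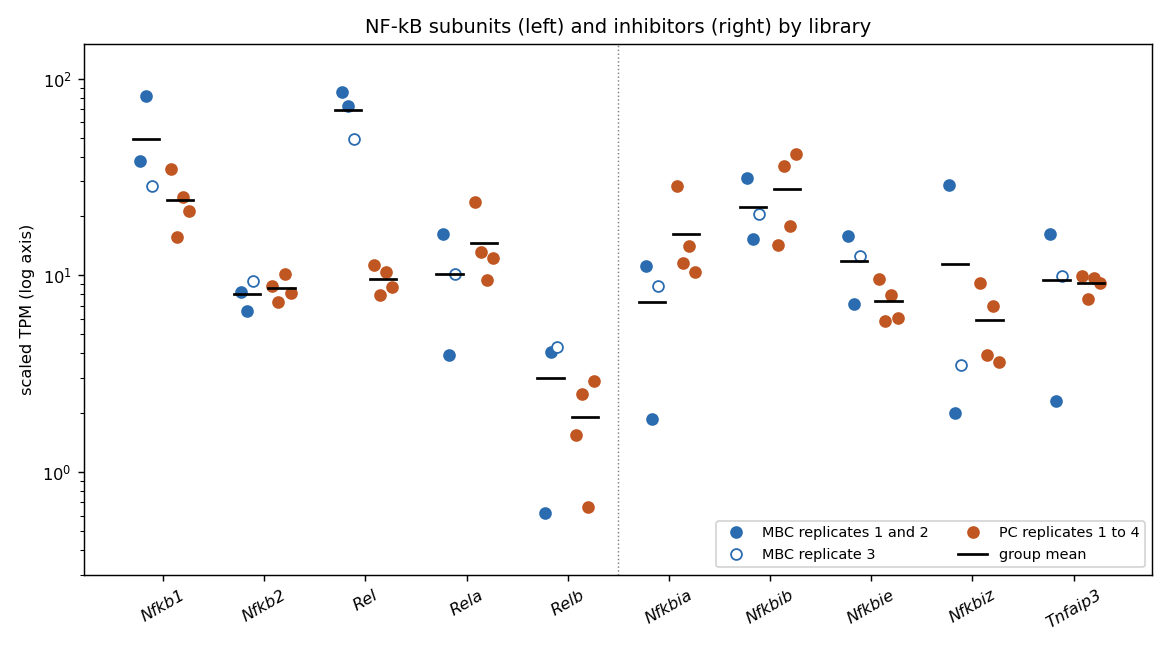
Scaled TPM (log axis) of the 5 subunits and the 5 inhibitors in each library, with MBC replicate 3 as an open circle and bars at the group means. The Rel points separate, with MBC libraries at 49.5 or above and PC libraries at 11.3 or below, and the points of the other 9 genes overlap between groups.

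The other subunits did not pass the test. Nfkb1, on chromosome 3 (135584655 to 135691547, minus strand), encodes p105, the precursor of p50. It was at 38.1, 81.9 and 28.5 scaled TPM in the MBC libraries and at 34.7, 15.7, 25.0 and 21.1 in the PC libraries. MBC replicate 2 was far above the rest, and the groups overlapped. Its log2 fold change was -0.92 (SE 0.46, 95% interval -1.94 to 0.10, adjusted p = 0.256 by limma), and it was -1.23 without MBC replicate 3 (unadjusted p = 0.0257, adjusted p = 0.0888) and -0.49 without MBC replicate 2. In TPM as deposited, where the median of all genes is itself lower, Nfkb1 was called lower in PCs (-2.20, adjusted p = 0.006).

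Rela, on chromosome 19 (5637483 to 5648130, plus strand), encodes p65, the transactivating partner of p50 in the common dimer. Its scaled TPM was 16.2, 3.95 and 10.2 in MBCs and 23.5, 13.1, 9.42 and 12.2 in PCs. The lowest library was MBC replicate 2 and the highest PC replicate 1, with the others between them. The difference on the log2 scale was 0.58 (SE 0.55, 95% interval -0.64 to 1.80, adjusted p = 0.559), 0.68 without MBC replicate 3 and -0.63 with TPM as deposited. Without MBC replicate 1 it was 0.99, without MBC replicate 2 it was 0.09 and without PC replicate 1 it was 0.34.

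Both subunits of the alternative pathway had lower means than the other subunits, although their libraries overlapped in part. Nfkb2, which encodes p100 (chromosome 19, 46304320 to 46312385, plus strand), was at 8.21, 6.55 and 9.39 scaled TPM in MBCs and 8.82, 7.34, 10.1 and 8.17 in PCs. All 7 libraries lay between 6.55 and 10.1, and the log2 fold change was 0.09 (SE 0.43, 95% interval -0.86 to 1.04, adjusted p = 0.923), and 0.20 without MBC replicate 3. Nfkb2 shares 531 exon bases with an antisense transcript that is not listed, and 299 with antisense Psd, listed at 0.09 to 2.25 TPM. Its value may include reads of these neighbors. Relb (chromosome 7, 19606217 to 19629438, minus strand), the partner of p52, was at 0.62, 4.08 and 4.31 scaled TPM in MBCs and at 1.54, 2.50, 0.664 and 2.90 in PCs. It was the lowest member in both groups by mean, at 3.01 ± 2.07 (SD, n = 3) and 1.90 ± 1.00 (SD, n = 4). Its log2 fold change was -0.35 (SE 0.60, 95% interval -1.69 to 0.98, adjusted p = 0.761), and -0.06 without MBC replicate 3.

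The lower level of Rel also showed in the make-up of the subunit family. Each subunit was expressed as a percent of the summed TPM of the 5 subunits, a share that does not depend on the scaling of a library and that was not tested. Rel made up 57.4%, 42.8% and 48.6% of subunit transcripts in the MBC libraries and 14.1%, 17.1%, 18.8% and 16.5% in the PC libraries. It was the largest share in MBC replicates 1 and 3, and in MBC replicate 2 Nfkb1 was larger at 48.5%. In every PC library Nfkb1 held the largest share, at 33.7% to 45.0%.

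The share of Rela was 10.9%, 2.34% and 10.0% in MBCs and 29.4%, 28.1%, 16.9% and 22.9% in PCs, with no overlap. The share of Nfkb2 was 3.88% to 9.23% in MBCs and 11.0% to 18.1% in PCs, again with no overlap. Shares add up to the whole, so a lower share of Rel raises the others even where their own levels are alike. The scaled TPM of Rela and of Nfkb2 overlapped between groups, and shares with Rel left out were not computed. The separation of these shares is thus not a result apart from that of Rel. The shares of Nfkb1 and Relb overlapped between groups, Relb at 0.418% to 4.24% in MBCs and 1.19% to 5.47% in PCs.

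**Figure D2:**
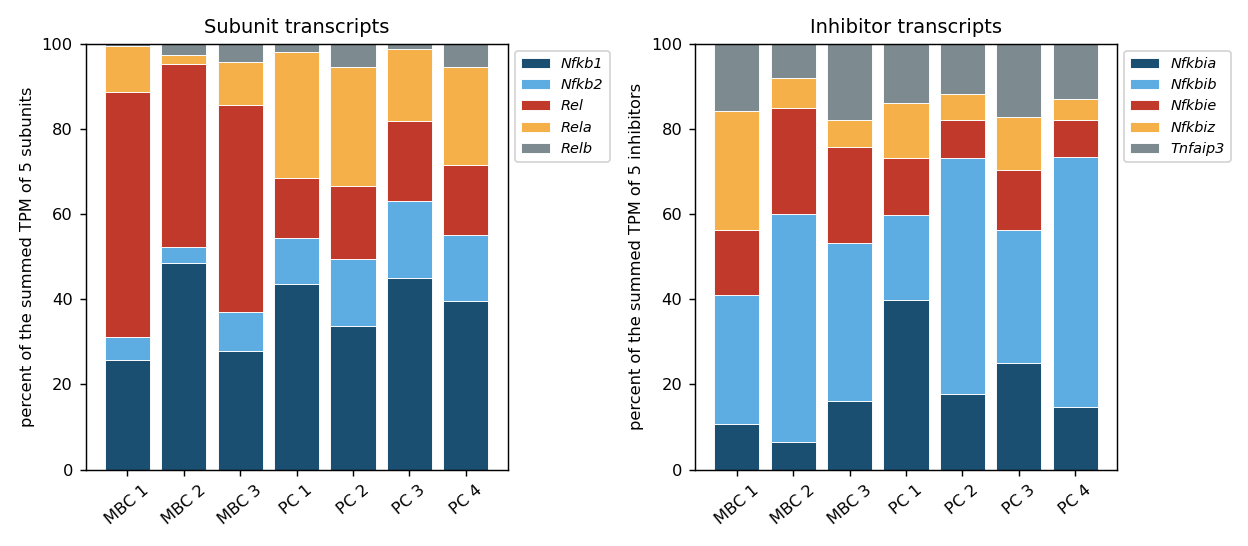
Make-up of the 5 subunits (left) and the 5 inhibitors (right) in each library, as percent of their summed TPM. Rel fills 42.8% to 57.4% of the subunit bars in MBCs and 14.1% to 18.8% in PCs, and Nfkbib fills the largest part of the inhibitor bar in every library but PC replicate 1, where Nfkbia does.

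Ratios between some picked pairs of members within a library were also compared, without a test. Rel over Rela was 5.25, 18.3 and 4.86 in MBCs and 0.481, 0.610, 1.11 and 0.719 in PCs. Every MBC library held several Rel transcripts for each Rela transcript, and 3 of the 4 PC libraries held fewer Rel than Rela transcripts. Rel over Nfkb1 was 2.23, 0.882 and 1.74 in MBCs and 0.325 to 0.509 in PCs. Rel over the sum of the other 4 subunits was 0.749 to 1.35 in MBCs and 0.164 to 0.231 in PCs. The Nfkb1 to Nfkb2 ratio overlapped between groups, at 3.03 to 12.5 and 2.14 to 3.94. Relb over Nfkb2 overlapped as well, at 0.0755 to 0.623 and 0.0661 to 0.355.

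Among the inhibitors, Nfkbia had the most positive fold change and did not pass the test. Nfkbia (chromosome 12, 55489410 to 55492647, minus strand) encodes IkBa, the early feedback inhibitor that NF-kB induces within a short time of activation. It was at 11.2, 1.85 and 8.84 scaled TPM in MBCs and at 28.6, 11.6, 14.1 and 10.4 in PCs. PC replicate 1 was the highest library and MBC replicate 2 the lowest, and MBC replicate 1 lay above PC replicate 4. The log2 fold change was 1.19 (SE 0.62, 95% interval -0.19 to 2.57, adjusted p = 0.278 by limma). It was 1.44 without MBC replicate 3 (adjusted p = 0.172), 0.54 without MBC replicate 2 and 0.00 with TPM as deposited.

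Immediate early genes, which respond to stimulation and to the handling of cells, were read beside Nfkbia. Of 13 such genes tested, 4 were called higher in PCs (Fos, Fosb, Jun and Jund) and 0 lower, with a median log2 fold change of 1.30. Over all genes 6.41% were called higher and 2.14% lower. The AP-1 subunit Fos was at 2.22, 16.1 and 4.04 scaled TPM in MBCs and 172, 90.8, 93.2 and 81.9 in PCs (4.01, SE 0.57, adjusted p = 0.0022), and was called in all 16 settings. The calls of Fosb, Jun and Jund held in 7, 7 and 8 of the 16 settings. With each library left out in turn, Fosb was called in 3 of 7 fits (not without MBC replicate 2 or PC replicates 1, 2 or 3; largest adjusted p = 0.0856), Jun in 2 (without MBC replicates 2 or 3; largest adjusted p = 0.0951) and Jund in 3 (without any MBC replicate; largest adjusted p = 0.0932). Their summed level over the list was 141 to 254 in MBCs and 430 to 938 in PCs, and the library with the highest sum, PC replicate 1, was also the highest for Nfkbia. Among MBC libraries the order differed: MBC replicate 2 had the highest sum, 254, and the lowest Nfkbia, 1.85 scaled TPM. The part of the immediate early genes in the level of Nfkbia was not tested.

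The other IkB proteins of the module showed no call. Nfkbib, which encodes IkBb (chromosome 7, 28758251 to 28767512, minus strand), was at 31.1, 15.3 and 20.6 scaled TPM in MBCs and at 14.3, 36.0, 17.7 and 41.3 in PCs. PC libraries lay at both ends of the range, and the log2 fold change was 0.20 (SE 0.48, 95% interval -0.87 to 1.28, adjusted p = 0.833), and 0.18 without MBC replicate 3. It shares 314 exon bases with antisense Ccer2, listed at 0 in all libraries, and 42 with Sirt2, listed at 18.73 to 169.66 TPM. Nfkbie, which encodes IkBe (chromosome 17, 45555703 to 45563169, plus strand), was at 15.9, 7.11 and 12.5 in MBCs and at 9.58, 5.86, 7.89 and 6.09 in PCs. MBC replicate 2 lay among the PC libraries. The log2 fold change was -0.58 (SE 0.47, 95% interval -1.62 to 0.47, adjusted p = 0.490) and -0.51 without MBC replicate 3, and with TPM as deposited Nfkbie was called lower in PCs (-1.78, adjusted p = 0.0284).

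Nfkbiz (chromosome 16, 55811375 to 55838899, minus strand) encodes IkBz, a nuclear IkB protein that steers which targets NF-kB activates. It was at 28.9, 1.99 and 3.51 scaled TPM in MBCs and at 9.15, 3.95, 6.99 and 3.62 in PCs. A single library, MBC replicate 1, held the MBC mean of 11.4 ± 15.1 (SD, n = 3) above the PC mean of 5.93 ± 2.63 (SD, n = 4). The log2 fold change was -0.17 (SE 0.79, 95% interval -1.94 to 1.61, adjusted p = 0.921), -0.52 without MBC replicate 3 and 0.84 without MBC replicate 1 (adjusted p = 0.408).

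Tnfaip3 (chromosome 10, 19000910 to 19015657, minus strand) encodes A20, a ubiquitin-editing enzyme that shuts off signaling upstream of IKK. Its scaled TPM was 16.2, 2.30 and 9.87 in MBCs and 9.96, 7.61, 9.69 and 9.10 in PCs. The PC libraries were close together and lay inside the MBC range. Its log2 fold change was 0.24 (SE 0.60, 95% interval -1.10 to 1.58, adjusted p = 0.842), 0.42 without MBC replicate 3 and -0.44 without MBC replicate 2. The intervals of all 5 inhibitors reached beyond a 2-fold difference in at least 1 direction, so they do not show equal levels.

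**Figure D3:**
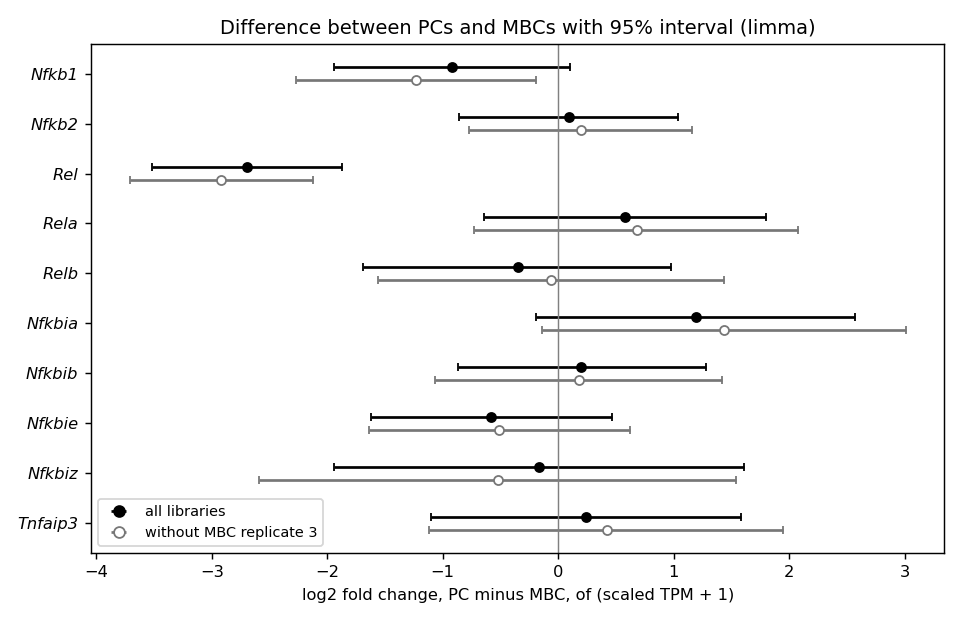
Log2 fold change, PC minus MBC, of log2(scaled TPM + 1) for the 10 members with 95% intervals from limma, for all libraries (filled) and without MBC replicate 3 (open). With all libraries the interval of Rel, -3.52 to -1.87, is the single interval that does not reach 0.

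The balance among inhibitors within a library was compared next. Nfkbia over Nfkbie was 0.702, 0.260 and 0.710 in MBCs and 2.99, 1.97, 1.79 and 1.71 in PCs. Nfkbie transcripts thus outnumbered Nfkbia transcripts in every MBC library, and the order was the opposite in every PC library. Tnfaip3 over Nfkbia was 1.45, 1.25 and 1.12 in MBCs and 0.348, 0.658, 0.686 and 0.874 in PCs, which also did not overlap. Nfkbia over Nfkbib overlapped, at 0.12 to 0.43 in MBCs and 0.252 to 2.0 in PCs. So did Nfkbia over the subunit Rela, at 0.468 to 0.868 and 0.857 to 1.5. For single genes the groups did not overlap in 21.7% of all tested, and no such share was computed for ratios. The pairs shown were picked from many possible ones, outside the planned make-up measures, and were not tested. Of the summed inhibitor TPM, Nfkbie made up 15.4%, 24.9% and 22.6% in MBCs and 13.4%, 9.01%, 14.0% and 8.63% in PCs. Nfkbib was the largest share in every MBC library, at 30.1% to 53.7%, and ranged from 20.0% to 58.6% in PCs. The share of Nfkbia overlapped, at 6.46% to 16.0% in MBCs and 14.8% to 39.9% in PCs.

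Subunits and inhibitors were then summed and set against each other. The 5 subunits summed to 148, 169 and 102 scaled TPM in MBCs and to 79.9, 46.6, 55.6 and 53.0 in PCs, and the 5 inhibitors to 103, 28.6 and 55.2 and to 71.6, 65.0, 56.4 and 70.6. The subunit sums did not overlap, and the inhibitor sums did. Inhibitor transcripts per subunit transcript were 0.696, 0.169 and 0.543 in MBCs and 0.897, 1.39, 1.01 and 1.33 in PCs. This ratio was higher in every PC library than in every MBC library. With Rel left out of the subunit sum it was 1.63, 0.296 and 1.06 in MBCs and 1.04, 1.68, 1.25 and 1.59 in PCs, and the groups overlapped. These sums and ratios were not tested.

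**Figure D4:**
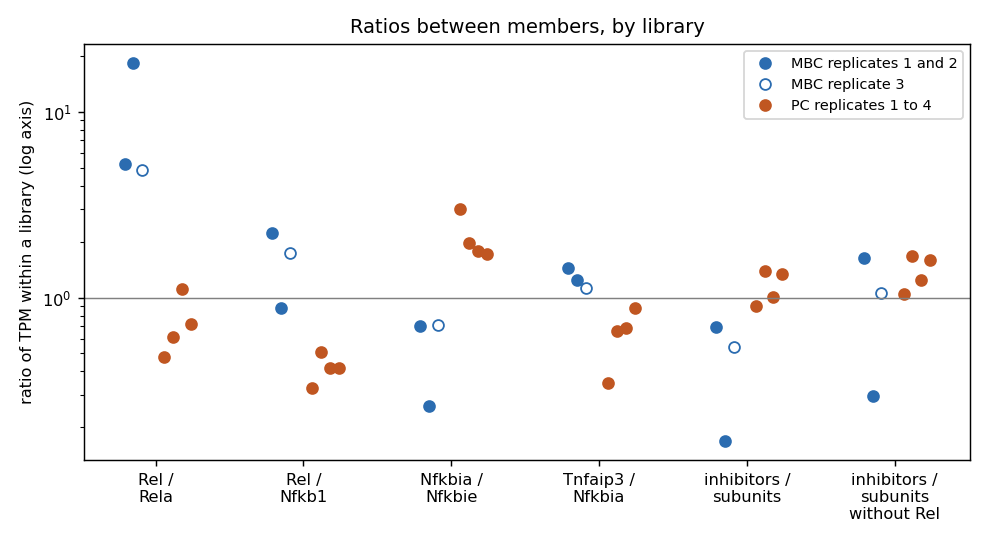
Ratios of TPM between members within each library (log axis), with MBC replicate 3 as an open circle and a line at equal levels. The groups separate for the ratios with Rel, for Nfkbia over Nfkbie, for Tnfaip3 over Nfkbia and for inhibitors over subunits, and overlap once Rel is left out.

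Ordered by mean scaled TPM in MBCs, the members were Rel (69.0), Nfkb1 (49.5), Nfkbib (22.3), Nfkbie (11.8), Nfkbiz (11.4), Rela (10.1), Tnfaip3 (9.45), Nfkb2 (8.05), Nfkbia (7.29) and Relb (3.01). No neighbors in this order differed beyond the range of their libraries. In PCs the order was Nfkbib (27.3), Nfkb1 (24.1), Nfkbia (16.2), Rela (14.5), Rel (9.61), Tnfaip3 (9.09), Nfkb2 (8.60), Nfkbie (7.35), Nfkbiz (5.93) and Relb (1.90). There, Nfkbiz and Relb were the single pair of neighbors whose ranges did not overlap. Rel moved from rank 1 to rank 5. Among all tested genes of a library, Rel lay at percentile 90.7 to 94.4 in MBCs and 50.6 to 57.8 in PCs. Nfkb2 lay near the middle in both, at percentile 50.2 to 57.2 and 48.4 to 55.6.

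The genes whose pattern was most like that of Rel over the 7 libraries were Sh3kbp1 (Pearson's r = 0.993), Fcer2a (r = 0.992) and Gsn (r = 0.991), as a description over libraries of 2 groups. Fcer2a, which encodes CD23, was at 292, 343 and 104 scaled TPM in MBCs and 7.95 to 15.7 in PCs. For Nfkbia they were 1300002E11Rik (r = 0.991), Golga1 (r = 0.983) and Ampd2 (r = 0.982).

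Genes around the module were then examined in 8 lists, from receptors to targets, with 69 genes of which 62 were tested. Of these, 9 were called lower and 2 higher in PCs, and without MBC replicate 3 the counts were 14 and 4. Over all genes the shares called lower and higher were 2.14% and 6.41% with all libraries, and 7.94% and 13.8% without MBC replicate 3.

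Receptors that feed NF-kB gave 3 lower and 1 higher call among 11 tested genes. Cd40, the receptor for T cell help, was at 24.3, 22.3 and 16.1 scaled TPM in MBCs and at 3.93, 2.93, 1.18 and 4.39 in PCs (log2 fold change -2.47, SE 0.50, adjusted p = 0.0152). The call was lost without PC replicate 2 (adjusted p = 0.058). Tlr9, a sensor of unmethylated DNA, fell by 3.12 on the log2 scale (adjusted p = 0.0027), from 52.9 ± 23.9 (SD, n = 3) to 4.89 ± 1.39 (SD, n = 4). The BAFF receptors parted: Tnfrsf13c, which encodes BAFF-R, fell by 1.53 on the log2 scale (477 ± 92.0 to 163 ± 7.06, adjusted p = 0.0092). Tnfrsf17, which encodes BCMA, was listed at 0 in all MBC libraries and at 17.7, 18.9, 17.4 and 15.0 in PCs (adjusted p = 0.0004). The third receptor of the group, Tnfrsf13b (TACI), did not pass, at means of 117 and 123. Without MBC replicate 3, Tlr7 was also called lower (-1.62, adjusted p = 0.0393).

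The relay from the BCR to IKK held 1 lower call among 3 genes tested here. Prkcb, a protein kinase C that links the BCR to IKK, was at 139, 200 and 84.8 scaled TPM in MBCs and at 19.9, 23.4, 26.1 and 26.8 in PCs. No library overlapped between groups. Its log2 fold change was -2.43 (SE 0.37, adjusted p = 0.0031), called in all 16 settings. Further along the relay, the adaptor Bcl10 had 0.39 (adjusted p = 0.536) and the paracaspase Malt1 -0.90 (adjusted p = 0.314), neither past the test. Without MBC replicate 3 Malt1 was called lower (-1.46, adjusted p = 0.0351).

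IKK and its activating kinase TAK1 gave 0 calls among 6 tested genes. The catalytic subunit Ikbkb was at 132, 45.3 and 23.8 scaled TPM in MBCs and 9.53 to 20.0 in PCs, and a log2 fold change of -1.94 (adjusted p = 0.0724). Without MBC replicate 3 it was -2.50 and was called (adjusted p = 0.0149). The linear ubiquitin ligase (3 genes) and the other ubiquitin brakes (9 tested) gave 0 calls with or without MBC replicate 3, with medians of -0.76 and -0.04. Genes of the alternative pathway and the TRAF adaptors (8 tested) gave 0 calls and a median of -1.03. Of these, Birc3 was called lower without MBC replicate 3 (-1.44, adjusted p = 0.0155). The remaining nuclear IkB proteins gave 0 calls, Bcl3 at 0.77 (adjusted p = 0.359) and Nfkbid at -2.55 (adjusted p = 0.133). Nfkbid was at 59.4 scaled TPM in MBC replicate 2 and at most 3.69 in every other library, and it was called without MBC replicate 3 (-3.29, adjusted p = 0.049).

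Genes described as NF-kB targets in B cells gave calls in both directions. Of 20 tested, 5 were called lower and 1 higher in PCs, with a median of -0.77. The lower ones were the costimulatory ligand Cd86 (116 ± 23.2 to 5.68 ± 2.56, log2 fold change -4.19), the activation marker Cd83 (-3.76), Fcer2a (-4.17), the follicular chemokine receptor Cxcr5 (-3.28) and the cytokine Tnf (-2.10). Their adjusted p-values were 0.00027, 0.00046, 0.00048, 0.0025 and 0.0389. The call of Tnf held in 1 of 7 fits that left out a library, that without MBC replicate 3, and its adjusted p was 0.0403 to 0.113 over the 7. The higher one was Irf4, a transcription factor that PC differentiation requires, also counted among the PC identity genes above. It rose from 17.8 ± 10.5 to 188 ± 28.0 (3.45, SE 0.39, adjusted p = 0.00054). Without MBC replicate 3, Ebi3 (3.40, adjusted p = 0.006) and Gadd45b (2.32, adjusted p = 0.0042) were also called higher. The cytokine gene Il6 was listed at 0 in all libraries.

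**Figure D5:**
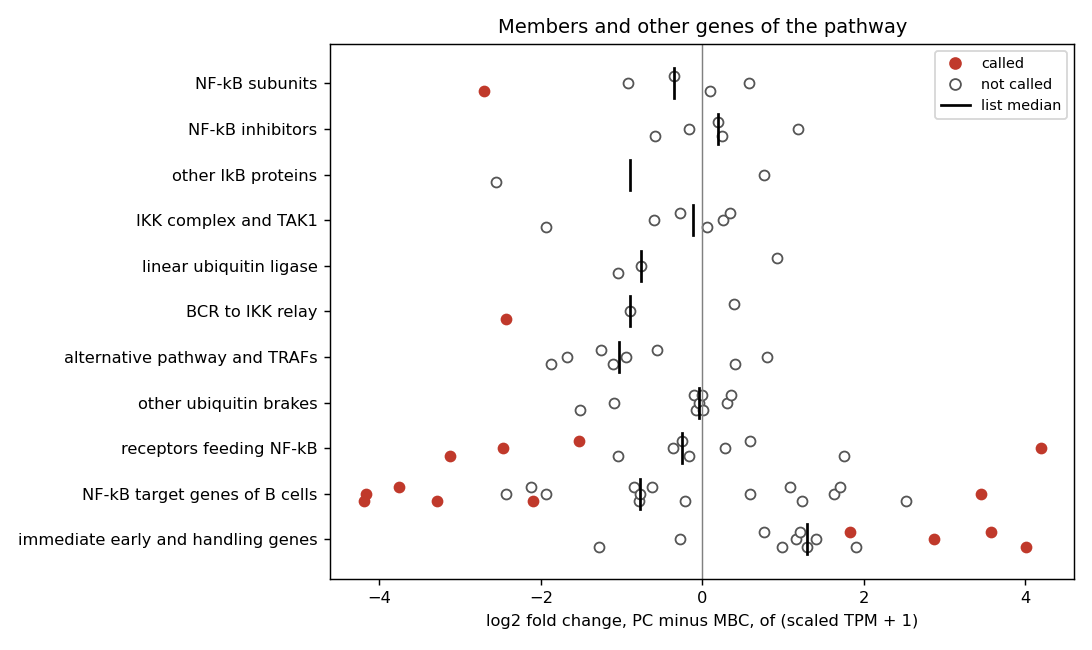
Log2 fold change, PC minus MBC, of every tested gene of the module (top 2 rows), of 8 lists around it and of immediate early genes, with called genes filled and bars at list medians. Lower calls lie among receptors, the BCR relay and targets, and each of the 4 calls among immediate early genes is higher in PCs.

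Markers of other cells were read beside these results. T cell genes summed to 14.4, 0.519 and 24.3 scaled TPM in MBCs and 15.5 to 41.0 in PCs. Most of the sum in MBC replicates 1 and 3 was Lck, at 14.3 and 23.0. Lck was at 0.629 to 5.03 in PCs and was not called (log2 fold change -0.85, adjusted p = 0.669 by limma). Cd3e was at most 0.658 in MBCs and 3.86 to 14.2 in PCs. Of 3 tested, 2 were called higher in PCs, Cd3e (adjusted p = 0.0081) and Trac (adjusted p = 0.0191, at most 0.0626 and not called without MBC replicates 1 or 2 or PC replicate 4), and Cd3g and Cd8a were listed at 0 in all MBC libraries. Myeloid genes summed to 11.3 to 51.2 in MBCs and 24.3 to 34.4 in PCs, with S100a9 at 0 in all libraries. NK cell genes summed to at most 0.0828 in MBCs and to 1.68 to 17.7 in PCs, with Ncr1 and Nkg7 at 0 in MBCs. Erythroid and platelet genes summed to 2.60, 2896.8 and 15.6 in MBCs and to 0.763 to 72.7 in PCs, with Ppbp and Itga2b at 0 in MBCs. GC B cell genes summed to 787 in MBC replicate 3 and to 241 to 321 in the other libraries. The similar sums differed in make-up. Mki67 was at 188 to 238 in PCs and at 41.2 and 62.0 in MBC replicates 1 and 2. Mybl1, called lower in PCs (-2.30, adjusted p = 0.0075 by limma), was at 25.8 to 69.3 in PCs and at 165 and 197 in those MBC libraries. The part of such cells in the level of each member was not tested. For Rel, the log2 fold change was -2.65 without MBC replicate 2, the library with the erythroid transcripts, and -2.92 without MBC replicate 3.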

How the data were processed

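The authors deposited TPM per Ensembl gene for each library. The submitters' processing notes name STAR 2.5.2a, RSEM 1.3.0, DESeq2 1.18.1 and GRCm38, with no role or order. The annotation release is not given in the sources used here. Symbols came from GENCODE M21 by gene ID (48349 of 48795 genes). Scaled TPM is TPM over the library's median ratio to the geometric mean of 9305 genes that were above 0 throughout. A filter of 1 TPM in 3 or more libraries left 11573 genes. On log2(scaled TPM + 1) they were fitted over all 7 libraries, with no covariate, by limma (lmFit and eBayes with trend, version 3.58.1, R 4.3.3). The procedure was tested on simulated data, drawn as independent normal values on the log2 scale with 1 spread per gene. Such data do not cover a deviating library such as MBC replicate 3. Levels between genes were compared per length, as TPM gives them. Reads shared with overlapping genes were split by the authors' program, and strand use is not given in the sources used here.

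All 10 members are named, and of each list around them the called genes, at most 6 by size of change. Genes called when MBC replicate 3 was left out, and Ikbkb, Malt1, Bcl10, Bcl3, Nfkbid, Tnfrsf13b and Bcl6, were named after their values were seen. The members, lists and motif were chosen with earlier results of these data known. Alternatives were a pseudocount of 0.1, no filter on low values, 3 other scalings, each library left out, libraries of the more frequent title prefix, and the replicate number or title code as a block. Leave-outs kept the gene set and scaling factors. Python 3.11.15 with pandas 2.3.3, numpy 2.4.6 and matplotlib 3.10.9 did the rest. Some genes of the lists are not reported here, and the list counts leave them out.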

Additional observations from a re-analysis of the deposited data

How the results depend on the processing

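Rel was called lower in PCs in all 16 settings, and no other member was called except with TPM as deposited, which gave 3 lower members (Rel -3.96, Nfkb1 -2.20 and Nfkbie -1.78). Of 150 member values under 15 alternatives, 132 kept their direction and their side of the threshold. Below its threshold, Nfkb2 changed sign with TPM as deposited (-1.10), after removal of immunoglobulin genes (-0.18) and after quantile normalization (-0.09), and ranged from -0.04 to 0.20 with each library left out. Rela did so with TPM as deposited (-0.63), and ranged from 0.09 to 0.99 over left-out libraries. Nfkbib was at -1.07 with TPM as deposited, -0.08 with immunoglobulin genes removed, -0.06 within the more frequent title prefix and -0.03 to 0.46 over left-out libraries. Tnfaip3 was at -0.94 with TPM as deposited, -0.01 after removal of immunoglobulin genes, -0.04 after quantile normalization and -0.44 to 0.75 over left-out libraries. Nfkbiz ranged from -0.82 to 0.84. TPM as deposited also moved the median of all genes, and the cause of the other changes was not tested.

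Over all genes, 742 were called higher and 248 lower. Without a filter on low values, which tests more genes, there were 437 and 123. With TPM as deposited there were 472 and 3018, after removal of immunoglobulin genes 393 and 431, after quantile normalization 490 lower, and within the more frequent title prefix 417 lower. Leaving out each library gave 451 to 1592 higher and 91 to 919 lower. The largest counts came without MBC replicate 3, and the smallest without PC replicate 2. The cause was not tested. Same-numbered libraries did not deviate together in every pair (r of 0.109, -0.0398 and -0.0832), nor did those with the same title code (0.109, -0.00436 and 0.222). Pairs that shared neither ran from -0.176 to 0.152, and the same-code value of 0.222 was the highest of all pairs. So few libraries cannot decide whether they are paired, and the reported fit took neither label to pair them. What the codes mark is not given in the labels, and a shared mouse behind a shared code was not tested. With the replicate block, from which PC replicate 4 drops out for lack of a partner, 390 genes were higher and 60 lower. Rel was at -2.66 (adjusted p = 0.034 by limma) and Nfkbib at -0.03. With the title code as a block, from which PC replicate 2 drops out, 434 were higher and 83 lower, and Rel was at -2.62 (adjusted p = 0.0192). The calls of Cd40, Tnf, Jund, Tnfrsf13c and Cd3e were lost in both blocked fits, and those of Jun, Trac and Bach2 with the replicate block. Low values, such as those of Relb, are limited by a depth that TPM does not give.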
